A study of Homo sapiens with 4 samples.

Results

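NALM6 and REH are human cell lines grown from acute lymphoblastic leukaemia (ALL) of B-cell precursors, and the 2 of 4 lines in this series that lack the translocation t(4;11). The study set them as a comparison group against RS4;11 and SEM, which carry t(4;11) and with it a rearranged KMT2A (MLL) gene. The comparison described here is NALM6 against REH, made over 18377 genes with 1 array per line. Each gene was represented by its brightest probe set and taken by symbol.

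All 4 lines were grown without any named drug or transgene, in RPMI with 10% serum and harvested before confluence. Total RNA was labelled for Affymetrix whole-transcript arrays. No line was engineered, and each stands for the single leukaemia it was grown from. As background from outside these data, REH carries the fusion ETV6-RUNX1, made by a translocation between chromosomes 12 and 21. NALM6 belongs to the subtype in which the germline transcription factor DUX4 is driven by an immunoglobulin enhancer. Both fusions are founding lesions of childhood B-cell precursor ALL. A B-cell precursor normally rearranges its immunoglobulin heavy chain gene with the RAG recombinase, places the chain on its surface with a surrogate light chain, and signals through it before the light chain is rearranged.

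Levels are log2 values made with the robust multi-array average (RMA), which gives no call of presence or absence. The median over all genes was 6.77 and is used below as the line between dim and bright. The 25th percentile was 4.99 in NALM6 and 4.97 in REH, so a fold taken against a level near 5 is a compressed measure. With 1 array per line no difference between the lines has a replicate check, and no p-value or SD is given. Differences are NALM6 minus REH on the log2 scale, and folds are the same differences unlogged. The only spread that these arrays give is between probe sets of the same gene. In 685 genes with several probe sets, the difference between the lines varied among them with a root mean square SD of 0.26, and in 0 genes did they point in opposite directions by 2-fold. That is a measure of probes, not of cultures.

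Most genes stood close together in the 2 lines. In 15290 genes (83.2%) the difference was under 1.5-fold, and the median difference was 0.03. At least 2-fold higher in NALM6 were 669 genes (3.64% of all genes), and 914 (4.97%) were at least 2-fold higher in REH. The larger number in REH depends on the scaling. Each array was centred on its own median over these genes (6.70 in NALM6 and 6.83 in REH). Then 829 and 770 genes were past the same fold, and the median difference moved to 0.16. With repeated quantile normalization the counts were 697 and 876, still larger in REH. At 4-fold, 245 genes (1.33%) were higher in NALM6 and 360 (1.96%) in REH, and 51 genes lay 32-fold or more apart. The same counts for RS4;11 against SEM were smaller, at 456 genes 2-fold higher in RS4;11 (2.48%) and 642 in SEM (3.49%), and at 4-fold 138 (0.751%) and 247 (1.34%). Over the 6 possible pairs of lines, the number of genes 2-fold apart ran from 1098 for RS4;11 and SEM to 2055 for SEM and REH, and NALM6 and REH were in between with 1583.

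**Figure D1:**
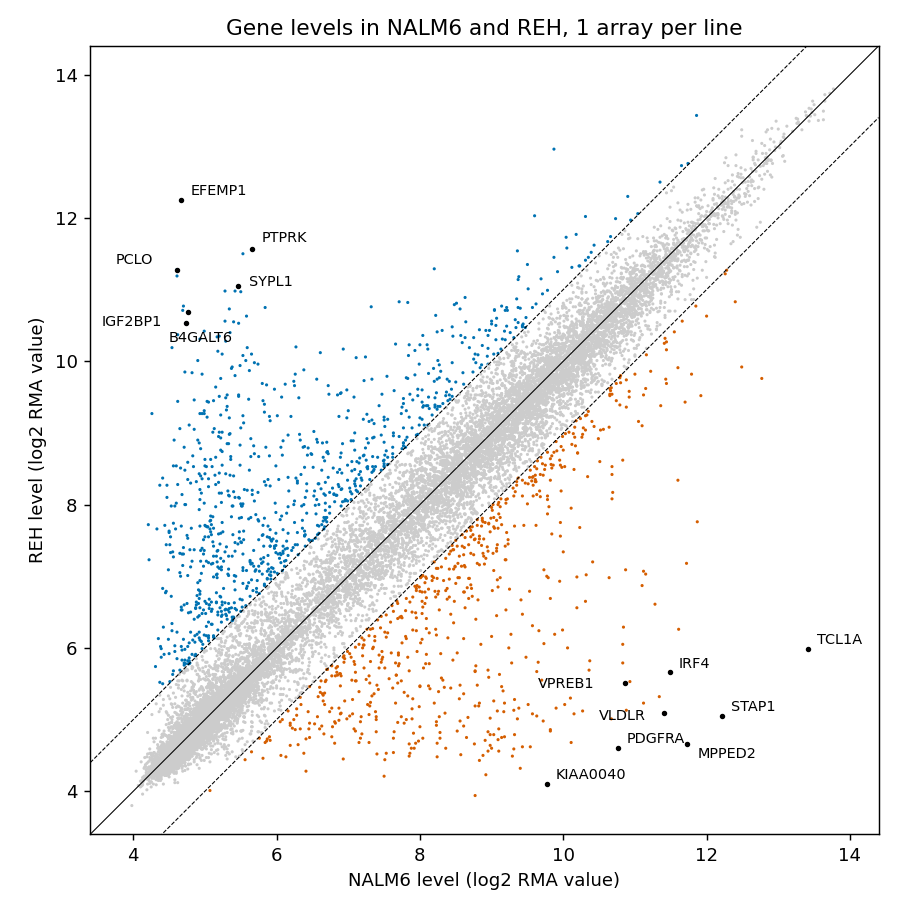
Level of each gene in NALM6 (horizontal axis) and in REH (vertical axis), both as log2 RMA values, 1 point per gene for 18354 genes. The solid line marks equal levels and the dashed lines a 2-fold difference, with genes past it in orange (higher in NALM6) and blue (higher in REH), and the corners hold TCL1A (13.42 and 5.98) and EFEMP1 (4.67 and 12.25).

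Both lines read as B-cell precursors by their markers. Of 10 measured B-precursor markers, 10 were above the median in NALM6 (7.95 to 12.49) and 9 in REH (5.51 to 12.56), where the surrogate light chain gene VPREB1 was the dim one. The T and NK markers CD3D, CD3E, CD3G, CD8A and GNLY were dim in both lines, and NKG7, a granule protein of cytotoxic cells, was above the median in REH alone at 7.11. Among 6 myeloid markers, LYZ (lysozyme) was bright in NALM6 at 9.65 against 5.80 in REH, and MPO (myeloperoxidase) was at 4.75 in NALM6 and 7.57 in REH. The remaining myeloid markers, CD14, ELANE, S100A8 and CSF1R, were below the median in both lines. JCHAIN, the joining chain of secreted immunoglobulin, was at 6.93 in NALM6 and 4.45 in REH. In RNA of a whole culture, fewer cells of a type and less RNA per cell cannot be told apart, and whether other cells entered these values was not tested.

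Genes known from the 2 fusion subtypes leaned in opposite directions, most members for ETV6-RUNX1 and only a part of them for DUX4. Of 23 measured genes known from ETV6-RUNX1 leukaemia, 18 were at least 2-fold higher in REH and 1 in NALM6, with a median difference of -1.49, against 4.97% and 3.64% of all genes and a median of 0.03. Of 20 genes known from DUX4-rearranged leukaemia, 7 were at least 2-fold higher in NALM6 (35%) and 2 in REH (10%), with a median of 0.25. The 7 that were at least 2-fold higher in NALM6 all passed 4-fold, and 11 of the 20 lay within 2-fold. By any amount 14 were higher in NALM6 and 6 in REH. Both lists were drawn up from general knowledge with earlier results of these arrays known, so their counts are a description and not independent evidence. The same holds for the other lists below. Shares of all genes, given beside the lists, take in genes dim in both lines, which passed 2-fold less often. Of the 669 and 914 genes past it, 615 and 780 were among the 9772 genes whose higher line was above the median. Lists of mostly bright genes therefore stand against a larger share than the one printed. Centring each array on its median over the genes adds 0.13 to every difference and turns the sign of 8 list medians that lay between -0.13 and 0.00, so medians that near 0 carry no direction.

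In the ETV6-RUNX1 list, PCLO, a scaffold of the presynaptic active zone, was at 4.61 in NALM6, 11.28 in REH, 4.54 in RS4;11 and 4.90 in SEM. IGF2BP1, an oncofetal RNA-binding protein, was at 4.77, 10.69, 4.76 and 4.83 in the same order. PTPRK, a receptor tyrosine phosphatase, was at 5.66, 11.56, 6.19 and 7.47. In all 3 genes REH was the high line, and no other line came above 7.47. The same held more weakly for ARHGAP29 (4.65 in NALM6, 9.06 in REH), a GTPase-activating protein, and for CLIC5 (4.47 and 8.27), a chloride channel family member of the cytoskeleton, with both t(4;11) lines at 4.42 to 4.76. TUSC3, a subunit of the oligosaccharyl transferase, was at 5.20 in NALM6 and 10.35 in REH, a 35.5-fold difference, and RS4;11 was at 6.49. DSC3, a desmosomal cadherin, was at 4.21 and 7.72. CCN2, a matricellular growth factor, was 6.98-fold higher in REH than in NALM6 (8.89 against 6.09), but RS4;11 stood above both at 11.23. FAM117A, at 9.87 in NALM6 and 8.73 in REH, was the member higher in NALM6. EPOR, the erythropoietin receptor, was 2.06-fold higher in REH and dim in both lines (5.38 in NALM6 and 6.43 in REH). The DNA-binding partner in the fusion, RUNX1, differed little, at 10.97 in NALM6 and 11.24 in REH.

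In the DUX4 list, STAP1, an adaptor that docks to signalling kinases in B cells, was at 12.22 in NALM6, 5.05 in REH, 6.76 in RS4;11 and 5.94 in SEM. CLEC12A, a C-type lectin receptor with an inhibitory motif, was at 9.40, 4.32, 4.47 and 4.36. PTPRM, a receptor phosphatase that binds itself between cells, was at 10.19, 6.56, 4.80 and 4.60. NALM6 was the high line for each, and the other 3 lines lay at or below 6.76. CLEC12B, the neighbouring lectin gene, was 16.7-fold higher in NALM6 (8.57 against 4.51). CHST2, a sulfotransferase of N-acetylglucosamine, was at 9.66 in NALM6 and 6.24 in REH, and AGAP1, a GTPase-activating protein for ARF proteins, at 10.41 and 7.20. GPR155, which takes part in cholesterol sensing at the lysosome, was 4.63-fold higher (10.83 against 8.62). ERG, an ETS-family transcription factor that is often truncated in DUX4 leukaemia, was at 10.73 in NALM6 and 11.99 in REH, with 11.16 in RS4;11 and 10.63 in SEM. FSTL5, a secreted follistatin-like protein, was the other member 2-fold higher in REH (5.41 against 6.93).

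The 15 largest differences in each direction, among genes whose brighter line was above the median, ran from 40.8-fold to 173-fold in NALM6 and from 44.2-fold to 191-fold in REH. TCL1A, a co-activator of the kinase AKT, headed the first set with 13.42 in NALM6, 5.98 in REH, 10.59 in RS4;11 and 11.48 in SEM. For VLDLR, a lipoprotein receptor, the values were 11.40, 5.09, 9.49 and 9.15. For IRF4, a transcription factor of B-cell maturation, they were 11.49, 5.67, 10.93 and 9.74. In these genes REH was the line that stood apart, well below the other 3. The same shape, with REH at 4.10 to 5.32 and the other lines at 9.16 to 11.90, was seen for NUP210, a glycoprotein of the nuclear pore membrane, and for BCAT1, the cytosolic branched-chain amino acid transaminase. SNTB1 (a syntrophin), KIAA0040, KCNQ5 (a potassium channel) and SLC9B2 (a sodium-proton exchanger) had it too.

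PDGFRA, a receptor tyrosine kinase of mesenchymal cells, was at 10.76 in NALM6 and at 4.60 in REH, 4.75 in RS4;11 and 4.64 in SEM. ANKRD30B was at 10.93 in NALM6 and between 5.53 and 5.79 in the other 3. Both were high in NALM6 alone, which did not hold for the next pair of genes. MPPED2, a metallophosphoesterase, was at 11.72 in NALM6, 4.66 in REH and 4.81 in RS4;11, but at 8.33 in SEM. LDLRAD3, a membrane protein with low-density lipoprotein receptor repeats, was at 11.61 in NALM6 and 6.26 in REH, with 9.10 in RS4;11 and 10.25 in SEM. PDGFRA was 1 of 2 stromal and epithelial markers past 2-fold, of 25 measured (4% in each direction, against 3.64% and 4.97% of all genes). The other, PDGFRB, was 2.73-fold higher in REH (8.13 against 6.68), and the whole list had a median of 0.01.

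In the set higher in REH, EFEMP1, an extracellular matrix protein (fibulin 3), was at 4.67 in NALM6, 12.25 in REH, 9.36 in RS4;11 and 4.87 in SEM. IGSF10, a secreted immunoglobulin superfamily protein, was at 4.61, 11.19, 4.61 and 4.58. NETO1, an auxiliary subunit of glutamate receptors, was at 4.69, 10.71, 4.83 and 4.74. All 3 were read at a high level in REH and, apart from EFEMP1 in RS4;11, near the dim end in the other lines. GABRA3 and GABRA4, subunits of the GABA-A receptor from chromosomes X and 4, were 67.2-fold and 53.8-fold higher in REH. B4GALT6, which makes lactosylceramide, was at 4.74 in NALM6 and 10.54 in REH, with 8.48 in RS4;11 and 7.39 in SEM. PCDH18, a protocadherin, was at 4.54 and 10.19. SYPL1, a relative of synaptophysin, and SLC35A4, of the nucleotide sugar transporter family, had the opposite shape. SYPL1 was at 5.46 in NALM6 and between 10.55 and 11.05 in the other 3 lines. SLC35A4 was at 5.42 in NALM6 and between 10.98 and 11.32 elsewhere.

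**Figure D2:**
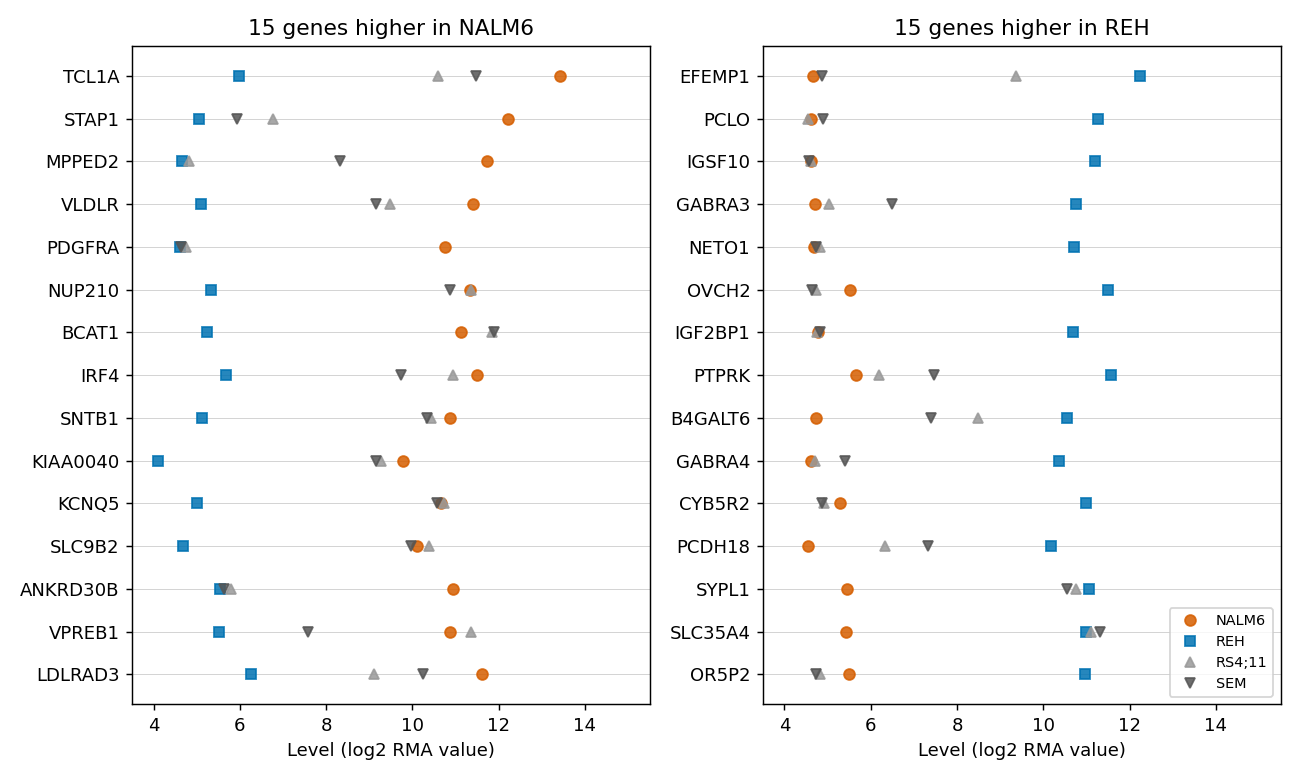
Levels (log2 RMA value) of the 15 genes with the largest difference in each direction, 1 marker per line and gene, with RS4;11 and SEM in grey. REH stands alone on the left for NUP210 and BCAT1 (5.32 and 5.23), NALM6 stands alone on the left for SYPL1 and SLC35A4 (5.46 and 5.42), and REH stands alone on the right for PCLO and IGSF10 (11.28 and 11.19).

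The t(4;11) lines show which of the 2 lines stood apart at each gene. Of the 245 genes 4-fold higher in NALM6, both RS4;11 and SEM lay nearer NALM6 in 103 (42%), nearer REH in 93 (38%) and split in 49 (20%). Of the 360 genes 4-fold higher in REH, both lay nearer NALM6 in 177 (49.2%), nearer REH in 105 (29.2%) and split in 78 (21.7%). REH was at least 4-fold above all 3 other lines in 139 genes, NALM6 in 78. REH was at least 4-fold below all 3 in 87 genes, NALM6 in 84. These sets follow from the comparison with the same 2 arrays, and are given as counts only.

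The dinucleotide CG, the target of DNA methylation in mammals, was counted in the promoters of genes that set 1 line apart. In the 250 bases before the annotated start, taken from RefSeq promoter sequences (assembly GRCh38.p14) and found for 14210 of the 18377 genes, the median number of CG was 18. It was 22 among genes above the median level in all 4 lines and 8 among genes below it in all 4. The genes lowest in REH had a median of 19 (68 of 87 with a sequence), and those lowest in NALM6 had 24 (62 of 84). The genes highest in NALM6 and in REH both had 20 (61 of 78 and 103 of 139). The medians of all 4 sets, 19 to 24, were 1 to 6 above that of all genes, and 3 of the 4 were below the 22 of the always bright genes. These counts were made after the levels were seen, and methylation was not measured. NUP210 and SLC35A4 are printed as examples of a gene bright in 3 lines and dim in a single one, NUP210 in REH and SLC35A4 in NALM6. The CG in each is in capitals, 33 and 29 of them, and 45% of the 14210 promoters had 20 or more. Others of that shape had both fewer and more than the median of 18, BCAT1 (dim in REH) with 17 and SYPL1 (dim in NALM6) with 31.
NUP210, chr3:13420323-13420572, minus strand: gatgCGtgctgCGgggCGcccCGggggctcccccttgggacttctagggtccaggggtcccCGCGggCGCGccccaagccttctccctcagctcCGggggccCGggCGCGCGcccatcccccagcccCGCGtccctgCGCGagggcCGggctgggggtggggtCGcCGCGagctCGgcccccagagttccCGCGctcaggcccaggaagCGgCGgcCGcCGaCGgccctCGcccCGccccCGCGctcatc
SLC35A4, chr5:140564578-140564827, plus strand: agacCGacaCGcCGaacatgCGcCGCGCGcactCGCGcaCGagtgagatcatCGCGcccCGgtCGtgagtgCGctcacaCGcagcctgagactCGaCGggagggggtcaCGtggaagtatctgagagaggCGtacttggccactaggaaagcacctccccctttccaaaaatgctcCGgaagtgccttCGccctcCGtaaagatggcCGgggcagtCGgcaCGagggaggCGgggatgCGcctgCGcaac

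The pre-B receptor list of 31 measured genes had 6 members at least 2-fold higher in NALM6 and 5 in REH (19.4% and 16.1%, against 3.64% and 4.97% of all genes), and a median of 0.00. VPREB1, which forms the surrogate light chain with IGLL1, was at 10.86 in NALM6, 5.51 in REH, 11.35 in RS4;11 and 7.57 in SEM. LYN, a SRC-family kinase that starts the receptor signal, was at 11.87, 7.76, 11.70 and 11.27. ZAP70, a kinase of T-cell receptor signalling that B-cell precursors also make, was at 8.96, 5.59, 9.75 and 8.80. For all 3 genes REH was the lowest line, and for LYN and ZAP70 the other lines lay close together. DAPP1, an adaptor bound to phosphoinositides, was 9.63-fold higher in NALM6 (8.35 against 5.09), and LAX1, an inhibitory membrane adaptor, 3.77-fold (7.40 against 5.48). PTPN6 (SHP-1), a phosphatase that damps the receptor, was 2.93-fold higher in NALM6 at 10.64.

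Other parts of the same pathway were higher in REH. VAV2, a guanine nucleotide exchange factor, was at 4.60 in NALM6, 8.54 in REH, 8.07 in RS4;11 and 8.66 in SEM, so that NALM6 was the line apart. Its relative VAV3 was at 9.21 in NALM6 and 10.75 in REH. FYN, another SRC-family kinase, was 2.83-fold higher in REH (9.31 against 7.81), PRKCB, the protein kinase C of B cells, 2.54-fold, and the linker BLNK 2.11-fold. BLNK was bright in both (10.66 and 11.74) and at 7.15 in RS4;11 and 5.35 in SEM. Members of the SRC family of kinases were thus past 2-fold in both directions, LYN toward NALM6 and FYN toward REH.

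In the recombination list, 13 of 17 genes lay within 2-fold. Past it were 2 in each direction (11.8%, against 3.64% of all genes toward NALM6 and 4.97% toward REH). RAG2, the partner of RAG1 in the recombinase, was at 11.86 in NALM6, 13.43 in REH, 10.94 in RS4;11 and 6.31 in SEM. RAG1 was at 7.95 in NALM6 and 8.97 in REH, 2.03-fold higher, so both subunits were higher in REH and both above the median in each line. The end-joining polymerases POLL and POLM went the other way, but DNTT (terminal transferase) did not, at 11.54 in NALM6 and 12.43 in REH. POLL (polymerase lambda) was 4-fold higher in NALM6 (7.33 against 5.33) and POLM (polymerase mu) 2.76-fold (9.58 against 8.12).

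Among 65 lymphoid transcription factors, 5 were at least 2-fold higher in NALM6 (7.69%, against 3.64% of all genes) and 10 in REH (15.4%, against 4.97%). Of the 65, 49 had the higher line above the median, and bright genes pass 2-fold more often than all genes. PAX5, which holds B-lineage identity, was level at 11.85 in NALM6 and 11.61 in REH. IKZF3 (Aiolos), an Ikaros-family repressor, was at 10.02 in NALM6, 5.21 in REH, 6.06 in RS4;11 and 5.55 in SEM. Only IRF4 of this list was farther toward NALM6, at 56.4-fold against 28.1-fold for IKZF3. BCL6, a repressor of germinal-centre and pre-B cells, was at 7.32 in NALM6, 10.76 in REH, 10.99 in RS4;11 and 9.24 in SEM. IRF8, a factor of early B and myeloid cells, was at 5.75, 8.67, 8.47 and 10.09. For both repressor and factor NALM6 was the lowest line. In pairs of related genes the lines were thus on opposite sides, IRF4 bright in NALM6 with IRF8 dim, and the reverse in REH. GATA3, a T-lineage factor, was 6.26-fold higher in NALM6 (8.12 against 5.47), and PRDM1, the plasma-cell repressor, 2.5-fold. ELK3, an ETS-family factor, was 4.51-fold higher in REH, NFIL3 3.75-fold, ID3, an inhibitor of E proteins, 3.18-fold, and ETS2 2.64-fold. ERG, LINC00114 and ETS2 are neighbours on chromosome 21, and all 3 were at least 2-fold higher in REH.

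The surface antigen list had 6 of 60 members past 2-fold in each direction (10%) and a median of 0.05. Of all genes, 3.64% were that much higher in NALM6 and 4.97% in REH. PROM1 (CD133), a stem-cell antigen, was at 5.34 in NALM6, 8.12 in REH, 12.30 in RS4;11 and 12.63 in SEM. FLT3, a cytokine receptor kinase of progenitors, was at 8.46, 10.35, 11.34 and 12.82. Both were lower in NALM6 than in REH, and the 2 t(4;11) lines were above both. FCRLA, an Fc receptor-like protein inside B cells, was 4.74-fold higher in NALM6 (9.84 against 7.59) and IL3RA (CD123) 3.39-fold (7.15 against 5.39). CD200, an inhibitory ligand that ALL diagnostics use, was 2.37-fold higher in REH (10.42 against 9.18) and at 5.13 and 4.74 in RS4;11 and SEM. The neighbouring genes SLAMF6, CD84 and SLAMF1, receptors that bind their own kind on other lymphocytes, were all at least 2-fold higher in NALM6. CD84 had the largest difference of these, with 11.10 in NALM6, 6.87 in REH, 7.62 in RS4;11 and 5.50 in SEM. Of 29 stem cell genes, 5 were at least 2-fold higher in REH (17.2%, against 4.97% of all genes) and 0 in NALM6. Besides PROM1, FLT3 and ERG these were MECOM and KIT, which were dim in both lines.

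Genes of adhesion and homing differed in both directions. Of 64, 10 were at least 2-fold higher in NALM6 (15.6%, against 3.64% of all genes) and 7 in REH (10.9%, against 4.97%). Integrin alpha V (ITGAV) was at 8.98 in NALM6, 4.79 in REH, 7.92 in RS4;11 and 8.31 in SEM. The integrin chains ITGB1, ITGB2, ITGB7 and ITGAL were also higher in NALM6, by 2.21-fold to 3.04-fold, and no integrin of the list was 2-fold higher in REH. MCAM (CD146), an endothelial adhesion molecule, was 15.4-fold higher in NALM6 (9.18 against 5.23), and ESAM, of endothelial junctions, 6.19-fold. CCR7, the lymph-node homing receptor, was 4-fold higher in NALM6 (7.57 against 5.57). In REH the bright ones were JAM2, SEMA6A, PLXNA1 and ALCAM. ALCAM (CD166), an adhesion molecule of activated leukocytes, was at 5.61 in NALM6, 9.47 in REH, 9.34 in RS4;11 and 9.90 in SEM. JAM2, a junctional molecule, was at 5.49, 9.94, 8.65 and 8.51, again with NALM6 alone at the dim end. SEMA6A, a transmembrane semaphorin, was at 10.31 in REH and from 4.84 to 4.96 in the other 3 lines. Its receptor family member PLXNA1 was 20.9-fold higher in REH than in NALM6 (9.80 against 5.42). LGALS1 (galectin 1) was at 6.87 in NALM6, 9.23 in REH, 10.14 in RS4;11 and 11.85 in SEM.

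Cytokine receptor and JAK-STAT genes were balanced, with 5 of 57 past 2-fold in each direction (8.77%) and a median of -0.01. The shares of all genes were 3.64% toward NALM6 and 4.97% toward REH. PIM1, a survival kinase induced by STAT5, was 7.71-fold higher in REH (10.05 against 7.11) and its relative PIM2 was at 9.11 in REH against 8.11. IL6ST (gp130), the shared receptor chain of interleukin 6, was 4.07-fold higher in REH (8.73 against 6.70). IL4R and CSF2RB were higher in NALM6, by 2.71-fold and 2.25-fold.

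In the RAS-MAPK list, 7 of 53 genes were at least 2-fold higher in REH (13.2%, against 4.97% of all genes) and 2 in NALM6 (3.77%, against 3.64%). The 7 included genes that ERK signalling induces. ETV5, an ETS factor of that kind, was at 6.24 in NALM6, 9.72 in REH, 8.45 in RS4;11 and 9.44 in SEM. DUSP6, the phosphatase of ERK, was at 8.48, 10.79, 5.79 and 8.45. ETV4 was 4.41-fold higher in REH (7.19 against 5.05). RASGRP1, an exchange factor that loads RAS with GTP, was 7.94-fold higher in REH (10.82 against 7.83). SPRED1, an inhibitor of RAS signalling through NF1, was at 8.95 in NALM6, 4.56 in REH, 8.84 in RS4;11 and 9.77 in SEM. REH thus had the lowest SPRED1 level of the 4 lines and the highest of ETV5, ETV4, DUSP6 and RASGRP1. No phosphorylated protein was measured.

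Genes of the glucocorticoid receptor and its response had 9 of 32 members at least 2-fold higher in REH (28.1%, against 4.97% of all genes). In NALM6 1 was so (3.12%, against 3.64%), namely BMF, a BH3-only death protein (2.18-fold). The median was -0.02. The receptor itself, NR3C1, was at 9.77 in NALM6 and 10.16 in REH. TSC22D3 (GILZ), a classic induced gene, was at 7.66 in NALM6, 10.24 in REH, 9.42 in RS4;11 and 9.29 in SEM. DUSP1 was at 9.60, 12.03, 10.65 and 9.40, and TLE1, a corepressor, at 8.22, 10.64, 8.25 and 8.17. TXNIP and ZFP36L2 were 2.22-fold and 2.15-fold higher in REH. The labels name no steroid in the medium, and DUSP1 is also a member of the MAPK list.

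Among 42 genes of cell death, 5 were at least 2-fold higher in NALM6 (11.9%) and 6 in REH (14.3%), against 3.64% and 4.97% of all genes. The REH side held the ligand TRAIL and its receptors. TNFSF10 (TRAIL) was at 6.98 in NALM6, 9.60 in REH, 8.10 in RS4;11 and 7.39 in SEM, and TNFRSF10A and the decoy TNFRSF10D were 3.25-fold and 3.34-fold higher in REH, the first of them dim in both lines. BCL2, the survival protein, was 2.11-fold higher in REH (10.52 against 9.44). PMAIP1 (NOXA), which opposes MCL1, was 2.27-fold higher in NALM6 (11.00 against 9.82) and CASP1 4.37-fold (9.08 against 6.95).

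Proliferation genes were level. Of 38, 0 were 2-fold apart in either direction (against 8.61% of all genes). All were above the median in both lines and the median difference was 0.01. MKI67, the Ki-67 antigen, was at 11.45 in NALM6 and 11.58 in REH, and PCNA, the clamp of DNA replication, at 11.24 and 11.22. CDT1, a licensing factor, was the farthest apart at 8.69 and 9.46. In the G1 list 37 of 40 genes were within 2-fold. Past it were 2 in NALM6 (5%, against 3.64% of all genes) and 1 in REH (2.5%, against 4.97%). CCND2 (cyclin D2) was 3.47-fold higher in REH but dim in both, and CDC25A and E2F5 were 2.97-fold and 2.55-fold higher in NALM6.

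At the CDKN2A locus on the short arm of chromosome 9 both lines were dim. CDKN2A, which encodes the inhibitors p16 and ARF, was at 4.69 in NALM6, 4.66 in REH, 4.90 in RS4;11 and 9.35 in SEM. MTAP, the neighbouring gene of methionine salvage, was at 4.65, 4.60, 4.67 and 9.29. Neighbours KLHL9 and HACD4 had the same order, from 4.57 to 4.86 in the first 3 lines and at 10.01 and 10.35 in SEM. NALM6 and REH thus stood level there, and SEM was the bright line. Outward of these, PLIN2, a lipid droplet coat protein, was 5.08-fold higher in REH (8.91 against 6.56), DENND4C 2.43-fold, and IFT74, of the cilium, 2.67-fold higher in NALM6. In the mismatch repair list, MSH6 was at 10.23 in NALM6 and 11.33 in REH, a 2.14-fold difference, and MLH3 was 3.26-fold higher in REH (9.48 against 7.77). KCNK12, a potassium channel gene next to MSH6 among the measured genes of chromosome 2, was 9.07-fold higher in REH (9.49 against 6.31). FBXO11, on its other side, was at 9.33 and 10.04.

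Interferon-stimulated genes had 9 of 46 members at least 2-fold higher in REH (19.6%, against 4.97% of all genes) and 0 in NALM6, with a median of -0.17. IFI44 was at 5.62 in NALM6, 8.48 in REH, 7.29 in RS4;11 and 6.43 in SEM. RSAD2 (viperin), an antiviral enzyme, was at 5.11, 7.83, 5.37 and 5.50. OAS3, which makes the activator of RNase L, was at 6.44, 8.79, 7.50 and 7.32. REH was the highest of the 4 lines in each, and NALM6 the lowest. CMPK2, the neighbour of RSAD2 on chromosome 2, was 5.36-fold higher in REH, OAS1 2.48-fold and the RNA sensor IFIH1 2.4-fold. Antigen presentation went the other way in few genes. NLRC5, the activator of class I genes, was 4.63-fold higher in NALM6 (9.96 against 7.75), and TAP1 was at 10.88 against 9.89, while B2M, the light chain of class I, was at 12.26 and 12.49. Of 15 class I genes 14 lay within 2-fold, and of 15 class II genes the one past it was HLA-DQA1 (7.10 in NALM6 and 5.54 in REH). Each list thus had 1 member at least 2-fold higher in NALM6 (6.67%, against 3.64% of all genes).

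In the NF-kappaB list, 5 of 38 genes were at least 2-fold higher in REH (13.2%, against 4.97% of all genes) and 1 in NALM6 (2.63%, against 3.64%). TNF was at 5.53 in NALM6, 9.24 in REH, 6.36 in RS4;11 and 6.34 in SEM. TNFAIP3 (A20), the feedback inhibitor, was at 10.31, 12.02, 7.86 and 6.41. LTA, next to TNF in the genome, was 2.35-fold higher in REH, BCL3 2.52-fold and TRAF5 3.52-fold. NFKBIZ was 2.13-fold higher in NALM6. TNFAIP3, PERP and ARFGEF3, neighbours on chromosome 6, were all at least 2-fold higher in REH.

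Developmental pathways had large differences in single genes and medians near 0. In the Notch list, NOTCH1 was at 5.90 in NALM6, 8.68 in REH, 8.68 in RS4;11 and 8.77 in SEM. Its target HEY2 was at 9.03, 5.26, 6.90 and 5.84, and PTCRA, the pre-T receptor chain, at 8.52, 5.93, 6.65 and 6.01. NALM6 therefore had the lowest NOTCH1 level and the highest level of these 2 genes. Of 37 Notch genes, 3 were at least 2-fold higher in NALM6 (8.11%, against 3.64% of all genes) and 5 in REH (13.5%, against 4.97%). In the WNT list, LGR5, a receptor for R-spondins, was at 12.77 in NALM6, 9.76 in REH, 8.13 in RS4;11 and 7.64 in SEM. RNF43, the ubiquitin ligase that removes Frizzled receptors, was at 9.05 in REH and from 4.69 to 4.85 in the other 3 lines. FZD6, a Frizzled receptor, was 16.6-fold higher in NALM6 (9.17 against 5.11). The Groucho corepressors were opposed, TLE4 being 9.55-fold higher in NALM6 (11.60 against 8.34) and TLE1 5.37-fold higher in REH. In the TGF-beta and BMP list, 9 of 52 were at least 2-fold higher in REH (17.3%, against 4.97% of all genes) and 3 in NALM6 (5.77%, against 3.64%). SMAD3, an effector of TGF-beta and activin, was at 5.65 in NALM6, 10.10 in REH, 9.05 in RS4;11 and 6.99 in SEM. SMAD1, an effector of BMP, was at 11.70, 9.43, 9.12 and 9.54. NALM6 was thus the highest line for SMAD1 and the lowest for SMAD3, 1 gene of each branch. In the whole list 40 of 52 genes lay within 2-fold. SMAD7, the inhibitor of both branches, was 3.53-fold higher in NALM6, and CHRDL1, a BMP antagonist, 8.53-fold.

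Of 48 genes of leukaemia drug response, 6 were at least 2-fold higher in NALM6 (12.5%, against 3.64% of all genes) and 0 in REH, with a median of 0.13. GSTM1, a glutathione transferase, was at 10.19 in NALM6, 6.99 in REH, 10.80 in RS4;11 and 10.34 in SEM. The gene is lacking from many human genomes and has near-identical relatives, so that its probe set may read more than itself. ABCG2, a drug efflux pump, was at 8.68, 6.69, 4.86 and 4.83, highest in NALM6. SAMHD1, which destroys nucleotides and the active form of cytarabine, was 3.34-fold higher in NALM6 (9.45 against 7.71). ABCC4, an efflux pump of thiopurine metabolites, was 2.79-fold higher, TPMT, which methylates thiopurines, 2.32-fold, and SLC29A2, a nucleoside carrier, 3.33-fold. No drug response was measured.

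Metabolic lists differed in shape. Genes of glycolysis and hypoxia had 6 of 35 members at least 2-fold higher in REH (17.1%, against 4.97% of all genes). In NALM6 0 were so (against 3.64%), and the median was -0.21. ENO2, the neuronal enolase, was at 5.97 in NALM6, 9.61 in REH, 5.34 in RS4;11 and 6.97 in SEM. ALDOC, an aldolase, was at 9.37 and 11.14, PFKFB3, a regulator of glycolytic flux, at 8.25 and 10.01, and SLC2A3, a glucose carrier, at 7.97 and 9.52. In the list of MYC targets and translation, 29 of 35 genes were higher in NALM6 by any amount, with a median of 0.35. Past 2-fold were 2 in NALM6 (5.71%, against 3.64% of all genes) and 0 in REH. SRM, the spermidine synthase, was at 10.85 in NALM6 and 10.03 in REH, and ODC1, ornithine decarboxylase, at 11.87 and 11.16. RRP9, a factor of ribosomal RNA processing and the farthest apart (2.84-fold), lies in the chromosome 3 stretch described below. Across all genes 10166 of 18377 were higher in NALM6 by any amount. Cholesterol synthesis genes had a median of -0.26, with 17 of 24 higher in REH by any amount. ABCA1, the cholesterol exporter, was 14.1-fold higher in REH (9.01 against 5.20), and its relative ABCG1 was 4.34-fold higher in NALM6 (8.47 against 6.35), so the exporters were opposed. In the stress response list PSAT1, an enzyme of serine synthesis, was 3.2-fold higher in NALM6 and SLC7A11, the cystine carrier, 2.6-fold higher in REH.

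The remaining lists differed in how many members were past 2-fold. Among 36 HOX and cofactor genes, 2 were at least 2-fold higher in NALM6 (5.56%, against 3.64% of all genes) and 1 in REH (2.78%, against 4.97%). They were MEIS2, at 7.17 in NALM6 and 4.74 in REH, PBX3, at 11.79 and 9.82, and HOXA2, at 5.32 and 8.19. Of 79 chromatin regulators 74 lay within 2-fold, and the farthest were SETBP1, 2.85-fold higher in REH, and HDAC9, 2.85-fold higher in NALM6. Past 2-fold were 1 in NALM6 (1.27%, against 3.64% of all genes) and 4 in REH (5.06%, against 4.97%). Of 36 oncofetal and germline genes, 4 were at least 2-fold higher in REH (11.1%, against 4.97% of all genes) and 0 in NALM6. The 4 were IGF2BP1, SALL4 (4.1-fold), PRAME and TERT, the telomerase catalytic subunit (9.36 against 8.21). By any amount 21 were higher in NALM6 and 15 in REH. Of 26 mature B and plasma genes, 4 were at least 2-fold higher in NALM6 (15.4%, against 3.64% of all genes) and 1 in REH (3.85%, against 4.97%). Beyond TCL1A and IRF4 these included JCHAIN, 5.55-fold higher in NALM6. Of 32 T and NK genes, 3 were at least 2-fold higher in NALM6 (9.38%, against 3.64% of all genes) and 1 in REH (3.12%, against 4.97%). CD4 was 4.42-fold higher in NALM6 (7.18 against 5.04). In the erythroid and megakaryocyte list 19 of 20 genes lay within 2-fold, and 1 was past it in REH (5%, against 4.97% of all genes).

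**Figure D3:**
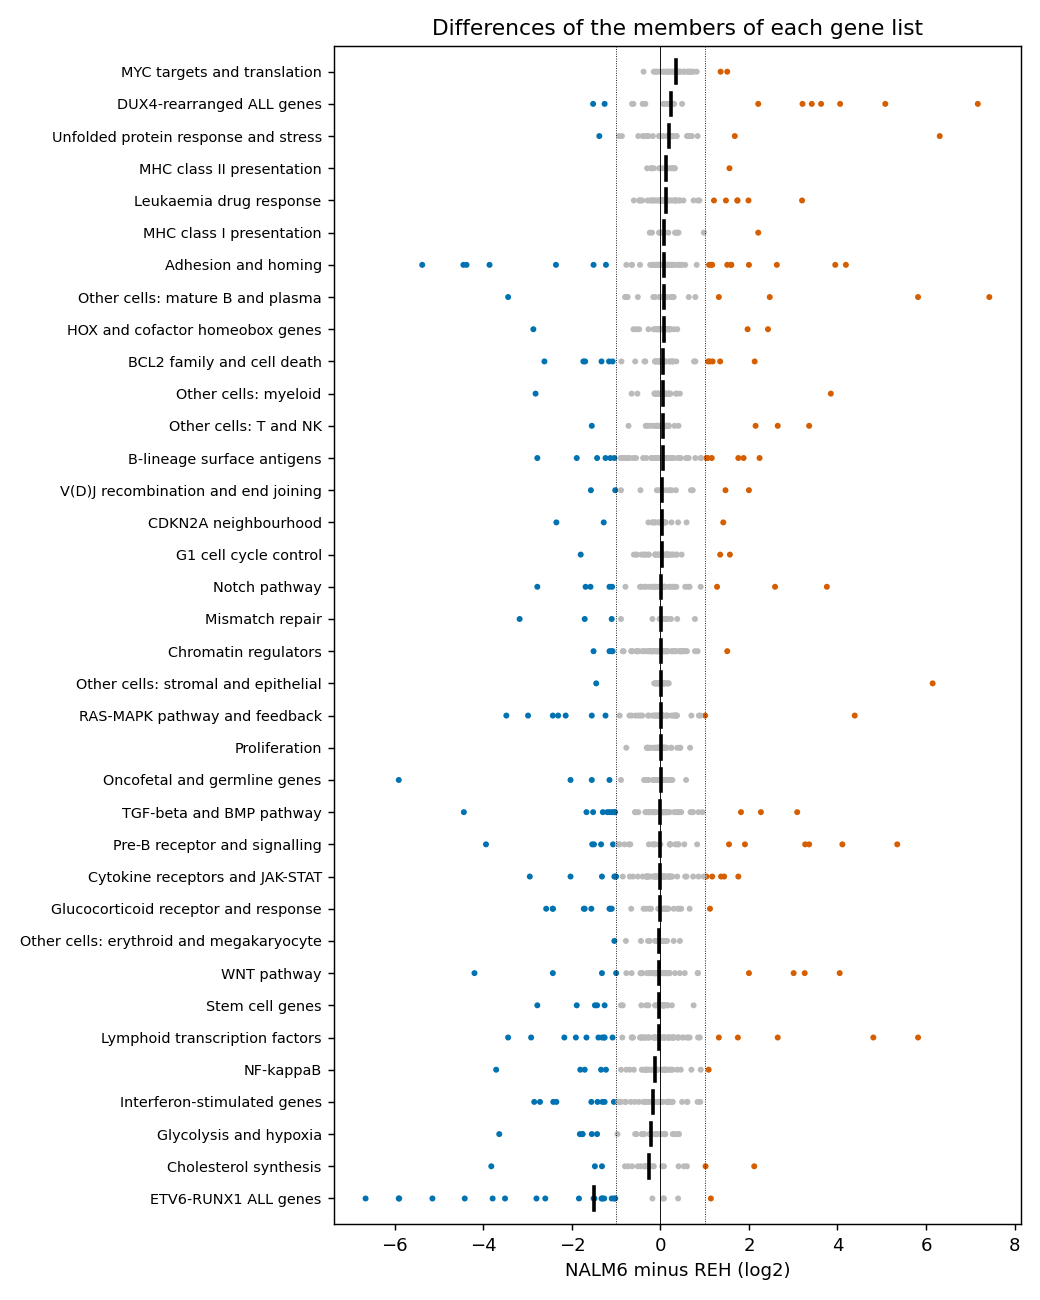
NALM6 minus REH difference (log2) of each measured member of the 36 gene lists, 1 point per gene, with lists ordered by their median (black bar) and dotted lines at a 2-fold difference. The ETV6-RUNX1 list lies lowest with a median of -1.49, and the list of MYC targets and translation highest with 0.35, while most medians lie near the 0.03 of all genes.

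Along the genome, the differences held together on the short arm of chromosome 3. Over runs of 25 neighbouring measured genes, the median difference had a 5th percentile of -0.11 and a 95th percentile of 0.15 among 17773 runs. The 3 highest separate runs were all on chromosome 3, at 0.90 from TLR9 to TKT (23 of the 25 genes higher in NALM6), 0.82 from CRIPTO to NME6 and 0.66 from CACNA2D2 to ALAS1. Between CCRL2 and APPL1, a stretch delimited after the differences were seen as adjoining runs with a median of at least 0.3, 138 of 166 genes were higher in NALM6 and 28 in REH. Most differences in it were small and alike. Among its 102 genes bright in the higher line the median was 0.85, the interquartile range was 0.58 to 1.10, and 96 were higher in NALM6 (94.1%). The edges follow from that rule, and the difference went on past them. In the 100 measured genes just before CCRL2, from SUSD5 to CCR2, 45 of 49 such bright genes were higher in NALM6 (91.8%), with a median of 0.80. In the 25 genes just after APPL1 it was 9 of 13 (69.2%), with a median of 0.58. These flanks were also set after the values were seen. In the rest of chromosome 3 the share was 52.8% of 390 bright genes, with a median of 0.02, and with the flanks counted in it was 57.5% of 452, with a median of 0.08. At least 2-fold higher in NALM6 were 33 genes of the stretch (19.9% of 166, against 3.64% of all genes) and 1, PFKFB4, was 2-fold higher in REH.

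The t(4;11) lines showed that REH was the line apart in this stretch. Over all its 166 genes, the median relative to the mean of RS4;11 and SEM was -0.47 in REH and -0.00 in NALM6. Its 102 bright genes had a median of -0.82 in REH and of 0.01 in NALM6 relative to the same mean. The stretch was delimited by the NALM6 minus REH difference, and its bright genes by the higher of these lines, so the sizes lean on that choice. SMARCC1, a core subunit of the SWI/SNF remodeller, was at 11.85 in NALM6, 10.77 in REH, 11.68 in RS4;11 and 11.77 in SEM. CDC25A, a phosphatase that drives the cell cycle, was at 9.68, 8.11, 9.76 and 9.68. TKT, transketolase, was at 11.55, 10.41, 11.10 and 11.33. In each the other 3 lines lay close together, with REH below them. The same held for PRKCD, a protein kinase C (9.12, 7.82, 9.01 and 9.41), and for USP19, a deubiquitinating enzyme (9.19, 7.23, 9.39 and 9.20). A few genes there differed for NALM6 alone. CACNA2D3, a calcium channel subunit, was 21.1-fold higher in NALM6 than in REH, with the 3 other lines from 4.60 to 4.76, and CCRL2, an atypical chemokine receptor, was at 8.32 against 5.18 to 5.55. DNA copy number was not measured on these arrays.

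**Figure D4:**
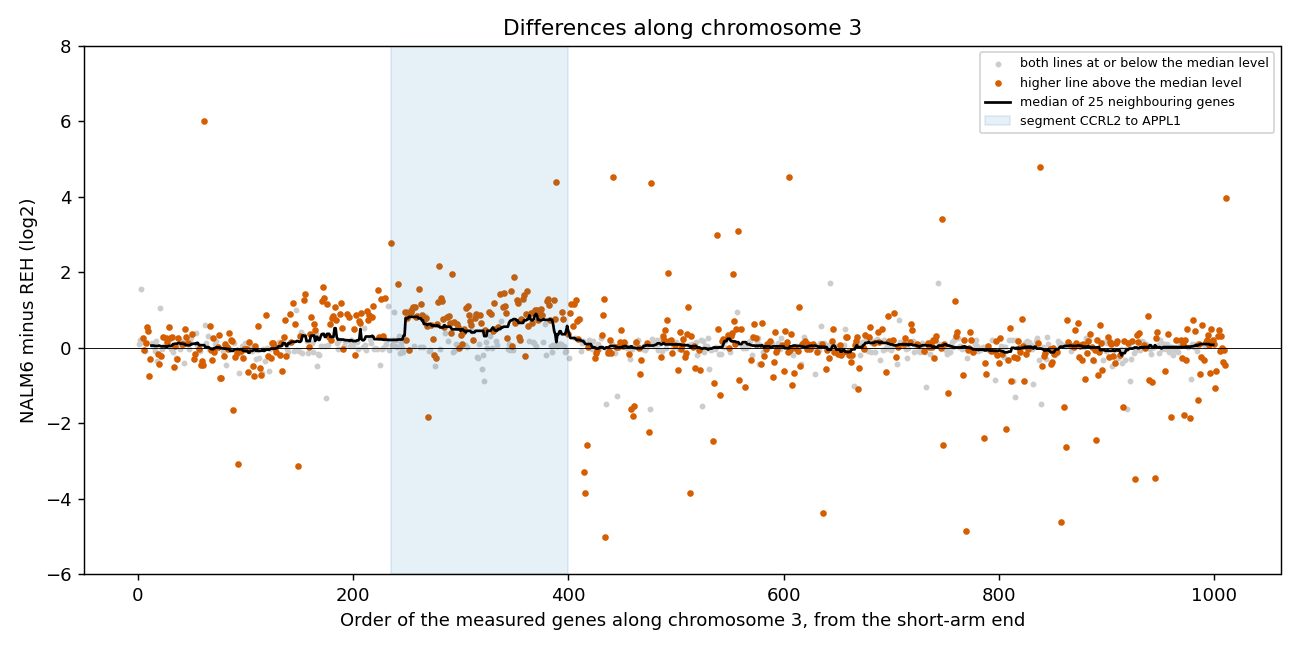
NALM6 minus REH difference (log2) of 1011 measured genes against their order along chromosome 3, with genes bright in the higher line in orange, the running median of 25 genes in black and the stretch from CCRL2 to APPL1 shaded. The running median is highest in the shaded stretch, where 96 of 102 bright genes were higher in NALM6, and is above 0 before it too, at up to 0.52.

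The lowest runs were less pronounced, at -0.43 on X from ALAS2 to ZC3H12B, and on chromosome 7 at -0.42 from BUD23 to STYXL1 and at -0.37 from STAG3 to EPHB4. MTMR8, a myotubularin-related protein on X, was at 8.54 in REH and from 4.51 to 4.56 in the other lines. GTF2IRD1, a transcription factor gene of the first chromosome 7 run, was 11-fold higher in REH (9.29 against 5.83), and EPHB4, an ephrin receptor in the second, 2.44-fold (10.09 against 8.81). Over whole chromosomes the medians ran only from -0.03 on chromosome 7 to 0.07 on chromosome 3.

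Beyond chromosome 3 there were single blocks of adjacent genes that differed together. Groups of at least 3 neighbouring measured genes past 2-fold the same way numbered 19, of which 8 were higher in NALM6 and 11 in REH. The block with the largest differences was on the short arm of chromosome 11, where 5 neighbours were at 9.96 to 11.50 in REH and at 4.64 to 5.74 in the other 3 lines. They were CYB5R2, a cytochrome b5 reductase, OVCH2, an ovochymase, and the olfactory receptor genes OR5P1P, OR5P2 and OR5P3, the first of which is a pseudogene. The block had sharp edges. PPFIBP2, just before CYB5R2, was at 6.46 in NALM6 and 6.66 in REH, and OR10A6, past OR5E1P (4.42 and 5.20) on the other side, was at 4.40 and 4.31. Olfactory receptor genes are near-identical to one another in places, so that values of single members are uncertain.

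Promoters of this block are shown because its genes were bright together in REH and yet differ in sequence type, CYB5R2 with 32 CG, OVCH2 with 2 and OR5P2 with 1 in 250 bases. Of 14210 genes, 21.7% had 5 or fewer. CG is in capitals and the sequences are from RefSeq, GRCh38.p14.
CYB5R2, chr11:7673501-7673750, minus strand: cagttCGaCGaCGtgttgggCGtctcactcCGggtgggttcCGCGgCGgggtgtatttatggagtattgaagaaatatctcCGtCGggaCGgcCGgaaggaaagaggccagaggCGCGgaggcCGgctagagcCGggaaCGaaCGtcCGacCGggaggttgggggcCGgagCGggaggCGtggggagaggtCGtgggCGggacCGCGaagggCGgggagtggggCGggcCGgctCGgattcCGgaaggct
OVCH2, chr11:7706478-7706727, minus strand: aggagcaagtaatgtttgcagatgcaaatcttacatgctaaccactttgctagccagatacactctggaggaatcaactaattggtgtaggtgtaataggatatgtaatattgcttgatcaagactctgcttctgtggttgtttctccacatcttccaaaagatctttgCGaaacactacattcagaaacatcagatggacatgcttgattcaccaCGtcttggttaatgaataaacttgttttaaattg
OR5P2, chr11:7796943-7797192, minus strand: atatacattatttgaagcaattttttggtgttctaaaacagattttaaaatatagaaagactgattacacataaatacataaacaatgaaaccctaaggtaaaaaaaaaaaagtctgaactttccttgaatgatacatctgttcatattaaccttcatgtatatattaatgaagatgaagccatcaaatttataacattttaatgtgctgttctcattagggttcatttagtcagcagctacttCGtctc

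In further blocks higher in REH, CFAP20DC, FHIT and PTPRG on chromosome 3 lay outside the stretch described above and went the other way. FHIT, a tumour suppressor at a common fragile site, was at 4.94 in NALM6, 8.78 in REH and 4.80 in both RS4;11 and SEM, and PTPRG, a receptor phosphatase, was 5.99-fold higher in REH. PTK2 (focal adhesion kinase) and DENND3, neighbours on chromosome 8, were dim in NALM6 alone, with PTK2 at 5.34 in NALM6, 10.73 in REH, 9.56 in RS4;11 and 10.63 in SEM. CMTM3, a membrane protein of the chemokine-like family, was at 5.47 in NALM6 and from 9.68 to 10.53 in the other lines, and its neighbours CMTM2 and CMTM4 were 4.26-fold and 7.24-fold higher in REH. GNPDA1 and NDFIP1 on chromosome 5 were 11.4-fold and 9.9-fold higher in REH. On chromosome 10, PI4K2A, a phosphatidylinositol kinase, was 7.14-fold higher in NALM6 (7.78 against 4.95), with 4 neighbours 2.13-fold to 2.34-fold higher.

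Metallothioneins, small proteins that bind zinc and copper, formed a block higher in NALM6 on chromosome 16. Of 13 measured, 6 were at least 2-fold higher in NALM6 (46.2%, against 3.64% of all genes) and 0 in REH. MT1F was at 10.87 in NALM6, 7.09 in REH, 12.07 in RS4;11 and 10.97 in SEM. MT1G was at 9.96, 7.56, 10.67 and 7.71. MT1H was at 8.56, 5.48, 5.93 and 5.45. No single order of the lines fits all 3, since REH was lowest for MT1F and MT1G and NALM6 alone was high for MT1H. MT1X was 2.58-fold higher in NALM6, with 10.63 in REH, and MT2A, the most used of the family, at 11.88 and 11.49. Metallothionein genes are near-identical, and reads of single members are uncertain. MTF1, the zinc-sensing factor that switches them on, was at 9.62 and 9.38, and SLC30A1, a zinc exporter that it also controls, at 6.73 in NALM6 and 6.98 in REH. The family was taken up after its values were seen.

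MTF1 binds metal response elements. TGCACNC and TGCGCNC were searched on both strands in the 250 bases before each start, with overlapping matches counted. They were found in 24.7% of 27305 promoters of the RefSeq table, and 1.56% had 3 or more. The promoters of MT4, MT2A, MT1B, MT1H and MT1X were in the table and all 5 had 3 or more, among them MT4 and MT1B, whose levels differed by 1.23-fold and 1.21-fold. MT1H with 8 matches and MT1X with 4 are printed as members past 2-fold, with the matches in capitals. A match is a description of letters and not a measured site.
MT1H, chr16:56669564-56669813, plus strand: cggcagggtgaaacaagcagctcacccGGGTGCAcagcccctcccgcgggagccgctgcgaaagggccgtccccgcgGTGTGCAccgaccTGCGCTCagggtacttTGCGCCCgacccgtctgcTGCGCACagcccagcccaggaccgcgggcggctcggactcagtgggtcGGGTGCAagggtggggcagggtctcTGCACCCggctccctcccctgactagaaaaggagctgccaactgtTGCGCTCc
MT1X, chr16:56682220-56682469, plus strand: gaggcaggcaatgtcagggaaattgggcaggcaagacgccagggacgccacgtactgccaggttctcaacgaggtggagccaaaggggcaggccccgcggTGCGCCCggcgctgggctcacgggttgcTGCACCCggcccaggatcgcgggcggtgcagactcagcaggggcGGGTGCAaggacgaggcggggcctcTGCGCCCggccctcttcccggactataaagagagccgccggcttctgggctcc

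**Figure D5:**
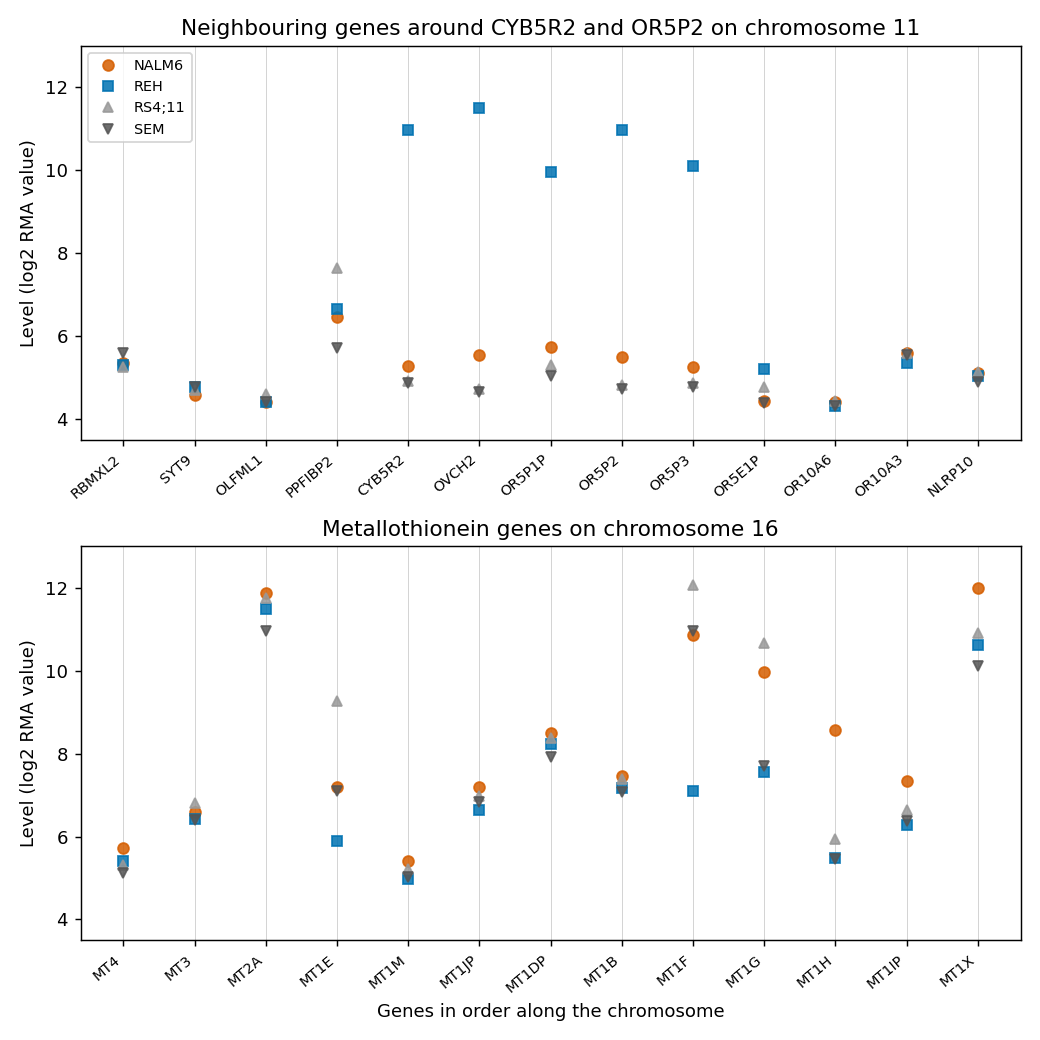
Levels (log2 RMA value) of neighbouring genes in the 4 lines, with genes in order along chromosome 11 around the block from CYB5R2 to OR5P3 (top) and along chromosome 16 for the metallothioneins (bottom). In the top panel REH lies at 9.96 to 11.50 for 5 adjacent genes and close to NALM6 for the genes on both sides, and in the bottom panel NALM6 is above REH for each gene, most of all for MT1F.

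MicroRNA genes were counted in the same way. Of 173 measured, 164 were found in the RefSeq microRNA table. At least 2-fold apart were 4 (2.31%, against 8.61% of all genes), and 3 of these had the higher line above the median. These shares were not compared at like levels. Genes dim in both lines passed 2-fold less often, so the lower share is not read as a trait of microRNA genes. The probe sets read the precursor or its host transcript and not the mature microRNA. Mature sequences of the 3 are given because they are what each gene would deliver, with the seed (bases 2 to 8) in capitals, from RefSeq, GRCh38.p14. No seed was shared between them.
hsa-miR-217-5p, chr2:55983020-55983042, minus strand: uACUGCAUcaggaacugauugga
hsa-miR-217-3p, chr2:55982984-55983005, minus strand: cAUCAGUUccuaaugcauugcc
hsa-miR-181b-5p, chr1:198858925-198858947, minus strand: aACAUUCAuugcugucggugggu
hsa-miR-181b-3p, chr1:198858887-198858907, minus strand: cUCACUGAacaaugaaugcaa
hsa-let-7g-5p, chr3:52268336-52268357, minus strand: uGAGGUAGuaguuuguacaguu
hsa-let-7g-3p, chr3:52268280-52268300, minus strand: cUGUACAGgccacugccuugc

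MIR217 was at 4.50 in NALM6, 7.61 in REH, 4.71 in RS4;11 and 4.56 in SEM, and so was bright in REH alone. It lies next to EFEMP1 on chromosome 2, the gene with the largest difference in REH, and the next gene, MIR216A, was at 4.78 in NALM6 and 5.78 in REH. On the other side of EFEMP1, PNPT1 was at 10.41 and 9.79. RS4;11, where EFEMP1 was at 9.36, had no such level of MIR217. MIR181B1, of a family that acts in lymphocyte development, was at 10.52 in NALM6, 9.04 in REH, 10.60 in RS4;11 and 10.48 in SEM, so REH was the low line. MIRLET7G, of the let-7 family that represses growth genes, was at 7.05, 5.55, 8.08 and 7.18. It lies within the chromosome 3 stretch in which REH was the lower line. MIR221 was at 6.67 in NALM6 and 5.21 in REH, just below the median that the rule required.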

How the data were processed

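Total RNA of 4 cell lines was measured on 1 Affymetrix whole-transcript array each, and the report compares 2 of them, NALM6 and REH. The submitters' processing notes name RMA and Partek, with no versions. The deposited table holds log2 values per probe set. Its scale is not stated and was read from the values, which run from 3.48 to 14.27 on the 2 arrays. RMA's quantile step equalizes total signal between arrays, and the array medians were 6.40 (NALM6) and 6.43 (REH). RNA sequencing of these lines was not used here.

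Of 32968 probe sets, 19310 had 1 gene symbol in the platform annotation, 1752 several and 11906 none listed. Those with 1 symbol were used, and 19279 matched RefSeq (GRCh38.p14) by Entrez ID, with 0 symbols updated. The probe set with the highest mean of the 2 arrays stood for its gene, which left 18377 genes. Of these, 23 genes on sex chromosomes are counted but neither named nor plotted. Gene order, promoters and microRNA sequences come from RefSeq, and which build the array annotation used is not given in the sources used here.

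No test was made, because each line has 1 array. Genes 2-fold and 4-fold apart were counted, and each of 36 gene lists was described by its counts and median beside those of all genes. Counting was tested on simulated data. Members and lists were chosen with earlier results of these data known. The text names the 15 largest differences per direction with the brighter line above the median of all gene values, list members 4-fold apart (at most 8, and at least the 2 farthest), genes picked by name for ALL, microRNA genes past 2-fold, and genes of the 3 highest and 3 lowest runs of 25 neighbours. Other members of these lists, neighbour blocks, metallothioneins and promoter motifs were named with their values known. Not every gene of that rule is analysed here. Alternatives were folds of 1.5 and 4, all probe sets, protein-coding genes alone, averaged probe sets per gene, dim genes left out, centring on the median over genes and repeated quantile normalization. Tables and plots used Python (3.11.15) with matplotlib (3.10.9), pandas (2.3.3) and numpy (2.4.6).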

Additional observations from a re-analysis of the deposited data

How the results depend on the processing

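With 1 array per line, these values have no replicate check, culture and line cannot be told apart, and leaving out a replicate was not an option. No paired analysis was possible because the labels give no replicate numbers. RMA values carry no detection call, so folds against levels near 5 are limited by background.

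The counts of genes 2-fold higher in NALM6 and in REH (669 and 914) were 829 and 770 with arrays centred on their medians over the genes and 697 and 876 with repeated quantile normalization. NALM6 held 42.3% of the genes past 2-fold as deposited, 51.8% after centring and 44.3% after repeated quantile normalization. Centring moved the median of all genes from 0.03 to 0.16. The counts were 663 and 907 with the mean of probe sets, 615 and 780 without dim genes, 699 and 976 over all probe sets and 633 and 862 for protein-coding genes. At 4-fold they were 245 and 360, and at 1.5-fold 1402 and 1685.

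Of 143 list medians recomputed, 139 moved by less than 0.26, the root mean square SD between probe sets of a gene. Some of this was fixed in advance. Centring adds the same 0.13 to every difference, and averaging can change only the 685 genes with several probe sets. The same limits hold for the named genes below. Without dim genes, fewer members remained and the medians became -2.05 for ETV6-RUNX1 genes, -0.85 for stem cell genes, 0.41 for T and NK genes and 0.64 for mature B and plasma genes. Of 122 named genes recomputed under 3 of the alternatives, ANKRD30B moved by more than 0.26, from 5.40 to 5.82 with the mean of its probe sets. AFF1 went from -0.08 to 0.05 after centring and CDKN2B from 0.03 to just below 0 with repeated quantile normalization. The other named genes kept their direction, as did list medians of at least 0.26 in size.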

Other observations

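Probe sets outside the gene-level comparison also differed between NALM6 and REH. Of 11906 probe sets with no symbol listed, 230 were at least 2-fold higher in NALM6 and 166 in REH, together 3.33%. Of 1752 with several symbols, 35 and 59 were so, together 5.37%, against 8.61% of named genes. Protein-coding genes were past 2-fold in 8.87% of 16863, and long non-coding RNA genes in 7.27% of 633 (16 higher in NALM6 and 30 in REH). Small nucleolar RNA genes were past it in 2.29% of 175. Of these, SNORA6 and SNORA62 adjoin SLC25A38 on chromosome 3, and all 3 genes were higher in NALM6. SNORA6 was at 8.95 in NALM6, 7.35 in REH, 9.04 in RS4;11 and 8.83 in SEM.

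Where probe sets of the same gene could be compared, 61 genes with several probe sets were 2-fold apart, and in 34 of them all probe sets passed 2-fold in the same direction. On chromosome 19, the zinc-finger genes ZNF790, ZNF345 and ZNF829 were all 2.01-fold to 3.11-fold higher in NALM6, and BTBD2, MKNK2 and MOB3A 2.51-fold to 5.67-fold higher in REH. MOB3A was at 7.22 in NALM6, 9.73 in REH, 9.66 in RS4;11 and 10.61 in SEM.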
